A study of Mus musculus with 2 samples.

Results

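The genes that write, maintain and remove cytosine methylation were described as a set of 8: the DNA methyltransferase genes Dnmt1, Dnmt3a and Dnmt3b, the maintenance cofactor gene Uhrf1, the dioxygenase genes Tet1, Tet2 and Tet3, and the glycosylase gene Tdg. They were chosen by name for their known function, and all 8 were found among the 43346 genes of the deposited tables. The RNA came from forebrains of healthy B6NCrl mouse embryos at 11.5 days, with both sexes pooled, and the labels name no treatment or mutation. Replicate 1 was a pool of 109 embryos and replicate 2 a separate pool of 88. Each library was built by a SmartSeq protocol, which copies and amplifies complementary DNA, from RNA amounting to 1 cell-equivalent; the assay is titled single cell, but the source was pooled tissue. The libraries form one group, so they allow levels and their spread to be described, and no test between conditions.

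Methylation of cytosine in CpG dinucleotides is copied after DNA replication by Dnmt1, which Uhrf1 brings to DNA methylated on one strand. Dnmt3a and Dnmt3b place methyl groups on unmethylated DNA. Tet enzymes oxidise methylcytosine in steps, and Tdg cuts out the last oxidised forms, which base excision repair replaces with plain cytosine. In the embryonic forebrain, dividing progenitors need maintenance methylation at each replication, and Dnmt3a and the Tet genes are known to act in neural progenitors and in the neurons they form.

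Several of these genes make more than one protein from different start sites, and the results for Dnmt3a and Dnmt1 turn on the start to whose models reads were assigned. The stretches just before their alternative starts are printed here because they show how different the paired promoters are in CpG content. The sequences are from RefSeq on GRCm38.p6 (mm10), 5′ to 3′ along the gene's strand, with every CG dinucleotide in capitals. The upstream Dnmt3a stretch is chr12:3806730-3806979 (plus strand, before the RefSeq start at 3806980; the model Dnmt3a-201 starts at 3807030), and the internal one is chr12:3891494-3891727 (plus strand, before the starts at 3891728 and 3891744). The Dnmt1 stretches are chr9:20952980-20953229 (minus strand, before the start at 20952979) and chr9:20959889-20960138 (minus strand, before the start at 20959888).
Dnmt3a upstream start: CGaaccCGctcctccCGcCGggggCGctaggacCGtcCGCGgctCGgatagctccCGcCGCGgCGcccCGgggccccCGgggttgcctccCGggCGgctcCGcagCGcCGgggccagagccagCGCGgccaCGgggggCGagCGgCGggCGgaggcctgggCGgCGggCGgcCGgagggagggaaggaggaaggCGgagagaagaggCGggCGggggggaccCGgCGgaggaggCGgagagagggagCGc
Dnmt3a internal start: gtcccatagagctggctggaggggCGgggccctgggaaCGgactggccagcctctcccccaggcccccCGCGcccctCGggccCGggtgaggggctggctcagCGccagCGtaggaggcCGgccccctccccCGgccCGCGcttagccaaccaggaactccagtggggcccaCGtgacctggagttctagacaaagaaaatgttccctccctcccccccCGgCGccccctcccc
Dnmt1 start at 20952979: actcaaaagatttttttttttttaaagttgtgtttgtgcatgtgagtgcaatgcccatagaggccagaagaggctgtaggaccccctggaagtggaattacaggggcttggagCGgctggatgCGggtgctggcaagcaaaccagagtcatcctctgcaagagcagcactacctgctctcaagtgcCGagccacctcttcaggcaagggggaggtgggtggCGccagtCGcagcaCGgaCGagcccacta
Dnmt1 start at 20959888: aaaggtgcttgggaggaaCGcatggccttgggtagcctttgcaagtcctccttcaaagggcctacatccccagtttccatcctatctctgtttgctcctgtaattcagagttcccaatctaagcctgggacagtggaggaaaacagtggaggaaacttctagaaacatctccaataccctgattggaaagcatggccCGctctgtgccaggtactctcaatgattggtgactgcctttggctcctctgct

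The upstream Dnmt3a stretch held 38 CG in 250 bases and the internal one 15 in 234 bases. The Dnmt1 stretches, of 250 bases each, held 7 and 2. A further RefSeq start of Dnmt1, at 20952623, lies close to the first of them. Its 300-base window held 33 CG, where the windows of the starts at 20952979 and 20959888 held 12 and 2. The longest exon-free run before the start at 20952623, of 84 bases, held 7. All 8 genes matched RefSeq promoter windows of 300 bases, from 250 before to 50 after a start, giving 13 windows. CG reads the same on both strands, so each site was counted once within a window. The Dnmt3a windows at chr12:3806730-3807029 and chr12:3806910-3807209 overlap, so the sites they share were counted in both. The windows of the 8 genes held 2 to 57 CG with a median of 26, against a median of 7 over all 32851 windows. At least 15 CG were present in 10 of the 13 windows (76.9%) and in 34.6% of all windows. All windows together cover 27025 genes and were not limited to protein-coding genes, which the 8 are, so the shares are not of like sets. The window of Tet2 was the richest, with 57 CG. These are counts of letters and not measurements of methylation, which was not assayed.

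**Figure D1:**
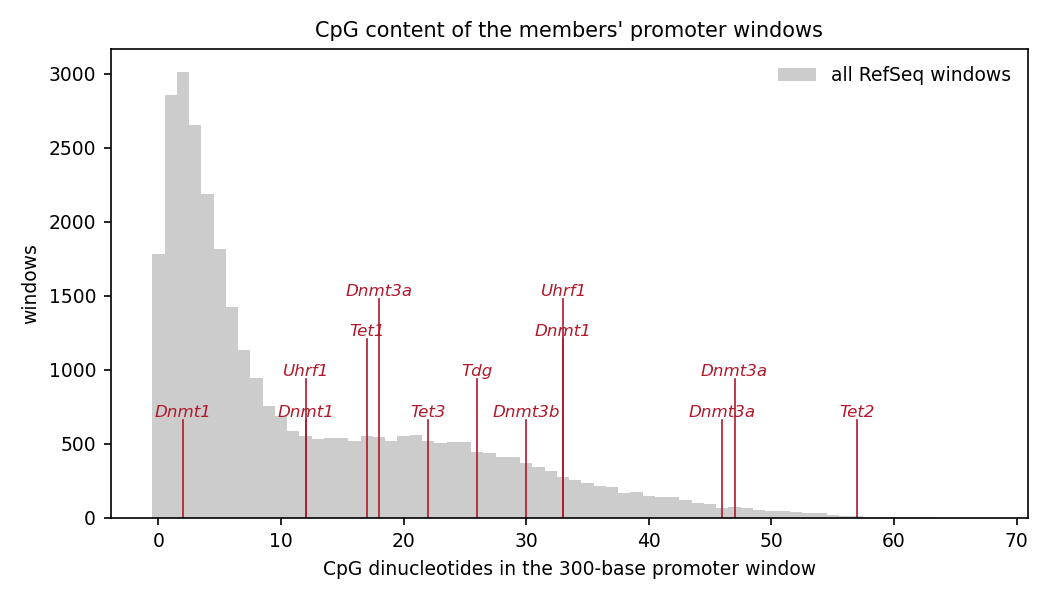
The number of CG dinucleotides in each 300-base RefSeq promoter window (x axis) is shown as a histogram of all 32851 windows (grey bars, y axis: number of windows), with red lines at the 13 windows of the 8 genes (line height has no meaning). Tet2 lies at 57 CG and the Dnmt1 window before the start at 20959888 lies at 2.

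Levels are given as TPM (transcripts per 1000000 transcripts, a value per length that allows genes to be compared) and as reads, in expected counts or CPM (counts per 1000000 counts). Values are in the order replicate 1, replicate 2. Differences are replicate 2 minus replicate 1 on the scale log2(value + 1), and an absolute difference of at least 1 is called 2-fold. At a TPM of at least 1, 7 of the 8 genes were detected in both libraries, all but Dnmt3b. The same held for 16.6% of all genes and 30.4% of protein-coding genes. The RNA was of whole tissue, so fewer cells of a type and less RNA per cell cannot be told apart in any value.

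By gene TPM, Tdg and Uhrf1 were the highest of the 8 in each library, and Tet2 and Dnmt3b the lowest. By mean TPM the order was Tdg at 174 ± 65.7 (SD, n = 2), Uhrf1 at 146 ± 35.7, Dnmt1 at 63.8 ± 8.58 and Tet3 at 54.4 ± 4.91. Dnmt3a at 53.4 ± 31.6, Tet1 at 30.4 ± 15.5, Tet2 at 8.70 ± 1.70 and Dnmt3b at 3.93 ± 5.55 followed. Between neighbours in this order, the libraries did not overlap for Uhrf1 above Dnmt1 and for Tet1 above Tet2. The other 5 pairs of neighbours overlapped, although Tet2 was above Dnmt3b within each library, so the order of these neighbours is not set beyond their spread. Summed over the maintenance genes Dnmt1 and Uhrf1, the level was 229 and 191 TPM, and over Dnmt3a and Dnmt3b it was 31.1 and 83.6. The Tet genes summed to 107 and 80.3 TPM, and all 8 genes to 495 and 576. In reads the Tet sum went the other way, at 219 and 342 CPM, while the other sums kept their direction. The Tet sum in TPM includes partial and non-coding models. Those of Tet1 held 38.1 and 7.35 TPM, and those of Tet3 48.1 and 43.25.

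**Figure D2:**
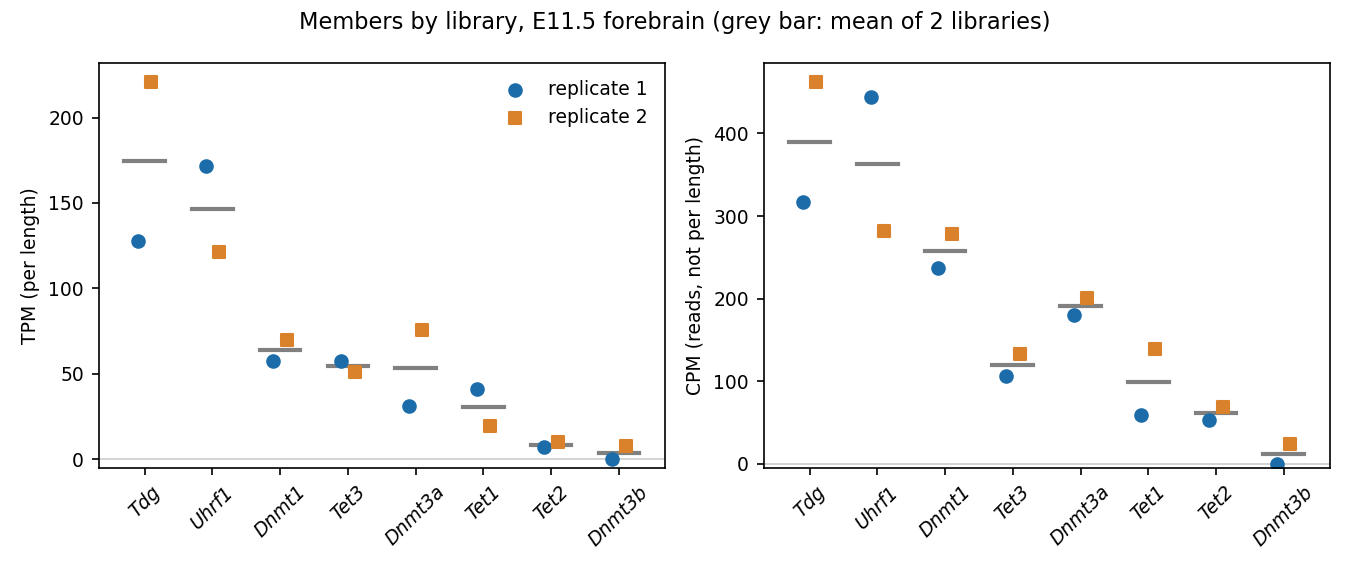
Each of the 8 genes (x axis, in order of mean TPM) is shown in TPM (left y axis, per length) and in CPM (right y axis, reads not divided by length), with replicate 1 as a blue circle, replicate 2 as an orange square and the mean of the 2 libraries as a grey bar. Tdg and Uhrf1 lie highest in both panels, and Dnmt3a moves above Tet3 in CPM, with a mean of 191 against 120.

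Maintenance genes were read deeply in both libraries. Dnmt1 (ENSMUSG00000004099.11, chr9:20907209-20959888, minus strand, mm10), the enzyme that copies methylation to the new strand, was at 57.7 and 69.8 TPM from 6774 and 8070 counts. Its difference was 0.27 in TPM and 0.24 in CPM, one of the narrowest gaps in the set. Uhrf1 (ENSMUSG00000001228.10, chr17:56303321-56323486, plus strand), whose protein binds hemimethylated DNA and recruits Dnmt1, was at 172 and 121 TPM from 12711 and 8170 counts. It was lower in replicate 2, by -0.50 in TPM and -0.65 in CPM, so the pair did not move together.

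The reads of Dnmt1 were divided between models that start at different places. The model Dnmt1-201, which starts at 20952979 and codes for the 1620-residue protein of somatic cells, had 5354 counts in replicate 1 and 4000 in replicate 2. Dnmt1-202 starts at 20959888 and codes for 1501 residues, 119 fewer, and had 1420 and 4070 counts. In TPM the longer form was at 45.4 and 34.2 and the shorter at 12.3 and 35.6. So Dnmt1-201 led in replicate 1 and the models were nearly level in replicate 2, while the gene total differed little. A form of Dnmt1 that lacks the first part of the protein and starts upstream is known from oocytes. The longer protein has 357 more coding bases, all within the 5 coding exons nearest the gene's start. The models share 5092 exonic bases, with 275 only in Dnmt1-201 and 156 only in Dnmt1-202, so reads over the shared bases do not tell them apart. The deposited TPM intervals of Dnmt1-202 were 9.53 to 14.9 and 30.5 to 38.1.

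For Uhrf1, the model Uhrf1-204, coding for 782 residues, led in both libraries, at 118 and 55.6 TPM. The models that code for 774 residues, which lack 24 bases of 1 coding exon, were together at 53.1 and 53.6 TPM. As reads were assigned, the gap in Uhrf1 between libraries lay in the 782-residue models, at 8681 and 4057 counts, while the 774-residue models had 4016 and 4022. Uhrf1-204 and Uhrf1-203 share 3321 exonic bases, with 70 only in Uhrf1-204 and 162 only in Uhrf1-203. Reads over the shared bases do not tell them apart. Of the 100-base stretches of Uhrf1, 5.53% also occur in the processed pseudogene Gm5648, which had 41.17 and 24.55 counts.

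The de novo methyltransferase genes differed between the libraries in TPM, and in Dnmt3a this went with the isoform to which reads were assigned. Dnmt3a (ENSMUSG00000020661.11, chr12:3806007-3914443, plus strand) was at 31.1 and 75.8 TPM, a 2-fold difference of 1.26. In reads it differed by only 0.15, from 5174 and 5813 counts. TPM divides reads by the effective length of the transcripts to which they are assigned, and that length was 7431 bases in replicate 1 and 3460 in replicate 2.

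The 908-residue form of Dnmt3a, known as Dnmt3a1 and annotated from the upstream CpG-rich start, had 5092 and 2510 counts. That was 98.4% of the gene's counts in replicate 1 and 43.2% in replicate 2. The 689-residue form, known as Dnmt3a2, comes from the internal start and lacks the first 219 residues. It had 18.8 counts in replicate 1 and 3162 in replicate 2, which is 0.364% and 54.4% of the gene's counts. In TPM the long form was at 23.7 and 11.8 and the short form at 0.38 and 49.2. In replicate 1 nearly all reads were thus assigned to the long form, and in replicate 2 they were divided, with the short form higher. The models of the short form, Dnmt3a-203 and Dnmt3a-205, have 117 and 133 exonic bases that Dnmt3a-201 lacks, while Dnmt3a-201 has 4378 and 7490 that they lack. They share 5307 and 2195 exonic bases with Dnmt3a-201, and reads over the shared bases do not tell the forms apart. In replicate 2 Dnmt3a-205, a model of 2328 bases, held 38.5 TPM of the short form on 1904 counts. The 657 coding bases that the short form lacks lie in the first 6 of the 22 coding exons of the long form. A partial model of 501 bases near the 3′ end, Dnmt3a-210, held 22.5% and 17.0% of the gene's TPM on 63.0 and 115 counts. An antisense gene that overlaps Dnmt3a, Dnmt3aos, had 0 and 203 counts, and its part in the result was not tested.

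Dnmt3b (ENSMUSG00000027478.11, chr2:153649450-153687730, plus strand), the other de novo enzyme, had 0 counts in replicate 1 and 683 in replicate 2. In TPM it was listed at 0 and at 7.85, a difference of 3.15 that the pseudocount sets in part, since it was 6.31 with 0.1 and 1.36 with 5 in place of 1. The deposited TPM intervals were 0.081 to 0.491 and 7.31 to 8.55. A count of 0 allows up to 3 counts, or 0.105 CPM. By its point value, Dnmt3b at 23.6 CPM in replicate 2 (95% Clopper-Pearson interval 21.9 to 25.4) was 225-fold above that floor. That limit covers counting error in the library and says nothing of RNA lost before sequencing. Among all genes with a mean TPM from 2 to under 5, the range that holds Dnmt3b, 50% had 0 counts in exactly one library, so its pattern is common at its level. In replicate 2 the model Dnmt3b-206, coding for 776 residues, had 548 counts and 81.6% of the gene's TPM. By the deposited posterior mean that share was 61.6%. It lacks coding exons of 60, 70 and 119 bases that the 859-residue model Dnmt3b-202 holds, and the last pair codes for part of the catalytic domain. A form of this kind, Dnmt3b3, is known to have little or no activity of its own. The 860-residue model Dnmt3b-201 had 135 counts and 1.44 TPM. Dnmt3b shares 4.47% of its 100-base stretches with Dnmt3c, a germline methyltransferase gene, which had 0 counts in both libraries.

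Tet genes were all detected in both libraries, and for Tet1 and Tet3 the direction of the difference turned between TPM and reads. Tet1 (ENSMUSG00000047146.11, chr10:62804570-62908996, minus strand) was at 41.4 and 19.5 TPM, a difference of -1.05. Its reads went the other way, with 1705 and 4032 counts and a difference of 1.21 in CPM. The effective length was 1841 bases in replicate 1 and 9339 in replicate 2.

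Short models held most of the TPM of Tet1 in replicate 1. Tet1-203, Tet1-204 and Tet1-205 lie in a stretch of 1.92 kb (chr10:62812622-62814541), 8.05 kb from the 3′ end of the gene. The second of these is annotated as subject to nonsense-mediated decay and the others as partial coding models. Together they held 92.1% and 25.5% of its TPM, but 38.6% and 3.0% of its counts. All 618 bases of Tet1-204 and 1143 bases of Tet1-205 are exonic in the full model too, so the assignment of reads there is uncertain. The model for the whole 2039-residue protein, Tet1-206, 14.4 kb long, had 1048 and 3837 counts. Its level was 3.28 and 12.1 TPM, so the transcript that codes for the full enzyme was higher in replicate 2. The gene TPM of Tet1 is the sum over the short models and the full one, and so is not the level of full-length mRNA.

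Tet3 (ENSMUSG00000034832.11, chr6:83362373-83459084, minus strand) was at 57.8 and 50.9 TPM and was alone among the 6 genes above a mean TPM of 10 in having overlapping deposited intervals, 51.5 to 61.5 and 46.0 to 54.7. It had 3035 and 3866 counts, a difference of -0.18 in TPM and 0.33 in CPM. As reads were assigned, the close gene totals came from different models. The partial model Tet3-204, of 469 bases, held 72.5% and 9.09% of the TPM, while the processed transcript Tet3-201, of 2523 bases, held 10.6% and 75.9%. Tet3-202, which codes for 1668 residues, was at 9.73 and 6.92 TPM from 2354 and 1658 counts. The longest protein model, Tet3-203 with 1803 residues, had 0 and 93.3 counts. Of the 2523 bases of Tet3-201, 2341 are exonic in Tet3-202 too, as are 391 of the 469 bases of Tet3-204. The assignment of reads there is therefore uncertain.

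Tet2 (ENSMUSG00000040943.8, chr3:133463679-133545139, minus strand), which unlike the long forms of Tet1 and Tet3 lacks a CXXC domain of its own, was the lowest Tet gene by gene TPM though not by complete coding models, given further on, at 7.5 and 9.9 TPM from 1525 and 1994 counts. It has 1 model in the tables, so its effective length was 9080 bases in both libraries and its differences in TPM and CPM, 0.36 and 0.37, were nearly the same.

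Tdg (ENSMUSG00000034674.14, chr10:82629828-82650799, plus strand), which removes formylcytosine and carboxylcytosine, was at 128 and 221 TPM from 9087 and 13381 counts. Replicate 2 was higher by 0.78 in TPM and 0.54 in CPM. The 421-residue form had 5791 and 2567 counts and the 397-residue form, 24 residues shorter, had 3290 and 10421. In TPM these were 76.0 and 34.0 against 51.4 and 164, so the leading form differed between the libraries. Tdg-201, the model of the shorter form, has 31 exonic bases that Tdg-208 lacks, and Tdg-208 has 574 of its own. Of the 100-base stretches of Tdg, 27.3% also occur in other annotated genes, among them the processed pseudogenes Tdg-ps, Gm9855 and Gm5597, which had 5.42 to 102 counts. Its gene bounds overlap Glt8d2 on the opposite strand, which had 0 and 204 counts, and whether strand was used in counting is not given in the sources used here. The division of reads between Tdg and these genes is therefore uncertain.

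**Figure D3:**
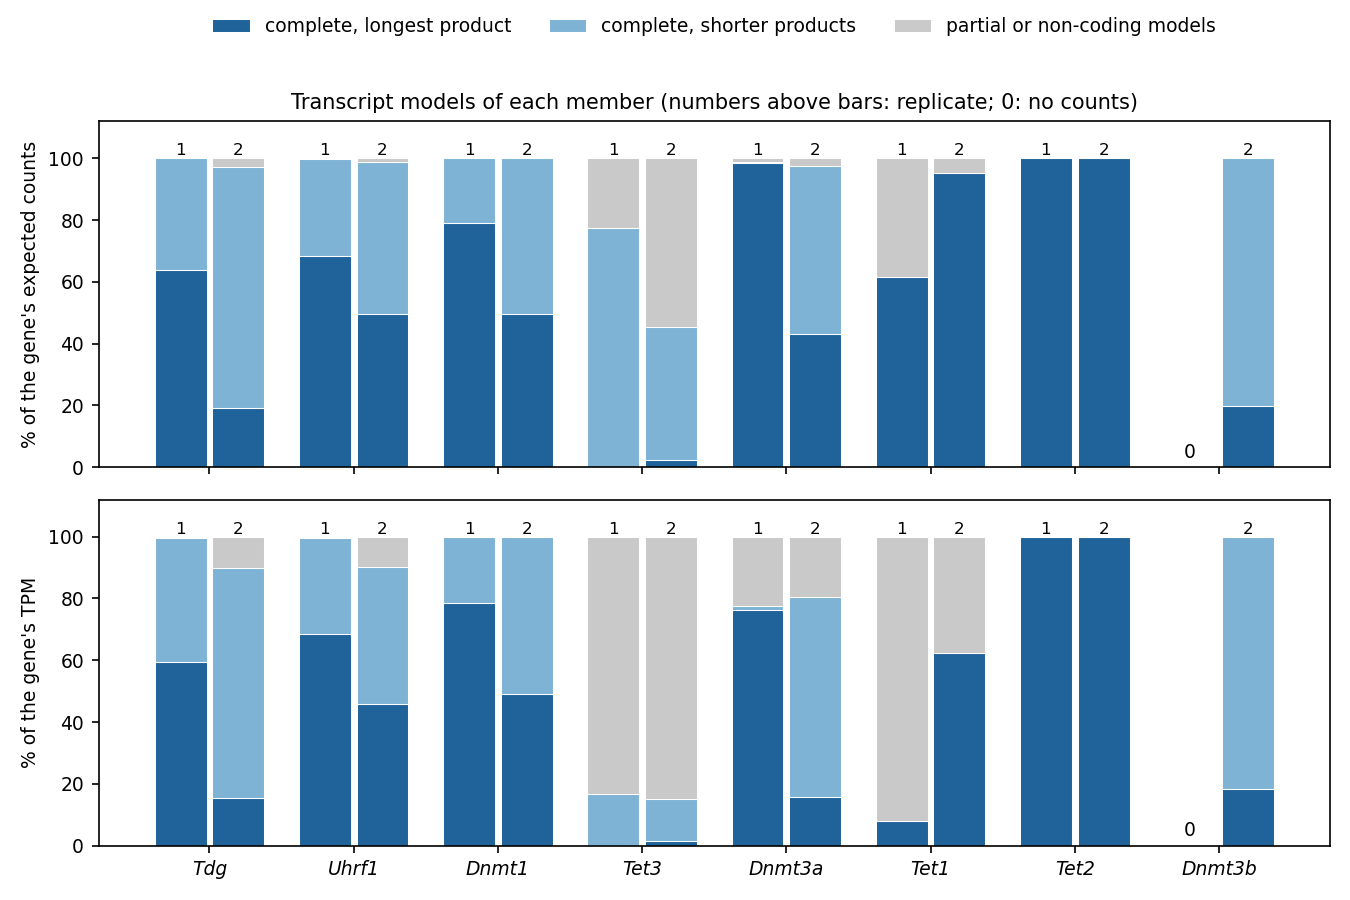
For each of the 8 genes (x axis) and library (1 or 2 above the bar), stacked bars give the percent of the gene's expected counts (upper y axis) and of its TPM (lower y axis) in complete coding models of the longest product (dark blue), in complete coding models of shorter products (light blue) and in partial or non-coding models (grey). Dark blue gives way to light blue in replicate 2 for Dnmt3a and Tdg, and grey fills most of the TPM but less of the counts for Tet1 in replicate 1.

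Of the 6 members whose mean TPM reached 10, 2 differed 2-fold in TPM, Dnmt3a and Tet1, against 51.3% of all 7680 genes at that level. In CPM 1 did, Tet1, against 51.1%. The median absolute difference of the 6 genes was 0.64 in TPM and 0.44 in CPM, beside 1.04 and 1.03 over all genes at that level. Their median signed difference was 0.04 in TPM and 0.28 in CPM, beside 0.02 and -0.00. Tet1 and Tet3 differed in opposite directions in TPM and CPM, which 6.22% of all genes at that level did. The deposited intervals did not overlap for 5 of the 6, close to the 89.9% of all genes. Those intervals describe the estimate within a library and not the spread between pools.

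**Figure D4:**
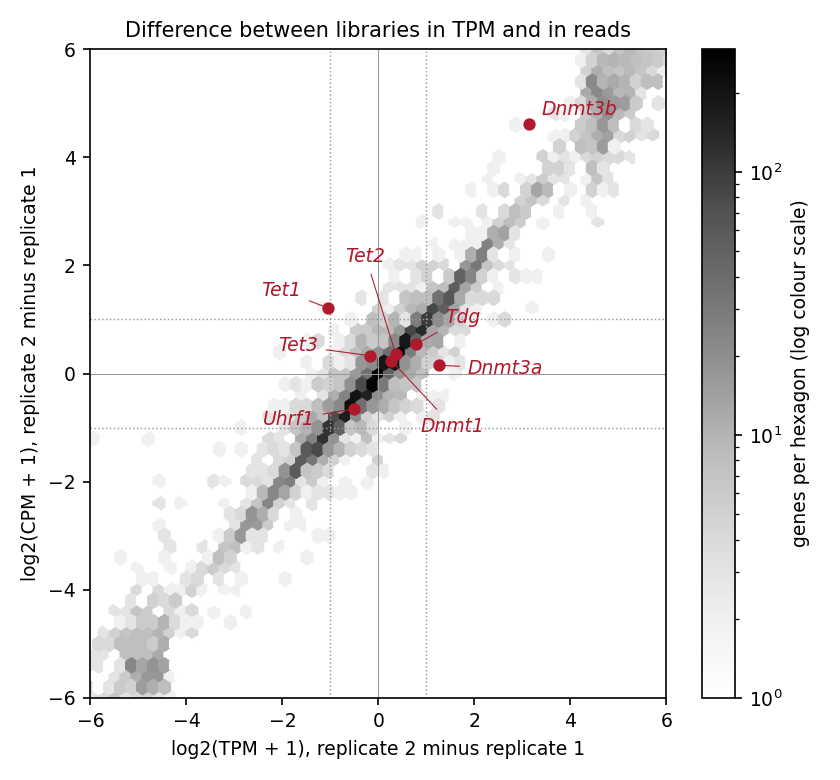
Differences between the libraries, replicate 2 minus replicate 1, are plotted in log2(TPM + 1) (x axis) against log2(CPM + 1) (y axis) for the 8 genes (red points) over hexagons shaded by how many of the 7680 genes whose mean TPM reached 10 they hold. Most genes lie near the diagonal, Tet1 lies off it at -1.05 and 1.21, Dnmt3a lies to the right at 1.26 and 0.15, and Dnmt3b, with 0 counts in replicate 1, lies at 3.15 and 4.62, values set in part by the pseudocount of 1.

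Among the 6 genes with at least 2 transcript models that were detected in both libraries, Uhrf1 alone had the same leading transcript by share of TPM, against 63.2% of all such genes. By expected counts it was 3 of the 6, Dnmt3a, Uhrf1 and Tet1, against 68.4%. Some leads by share of TPM were narrow in replicate 2. Uhrf1-204 held 45.85% and Uhrf1-203 43.09%, while Dnmt1-202 held 51% and Dnmt1-201 49%. When TPM was summed over complete coding models alone, Tet1 stood at 7.70 ± 6.25, Tet3 at 8.69 ± 1.48 and Tet2 at 8.70 ± 1.70 (SD, n = 2). On that scale the Tet genes were level with each other within their spread, and Dnmt3a, at 42.5 ± 26.1, stood above them by mean. Tdg at 163 ± 50.1 and Uhrf1 at 140 ± 43.6 kept the top places, and Dnmt1, whose models are all complete, stayed at 63.8 ± 8.58. This sum was chosen after the data were seen, and it rests on how reads over shared bases were divided between models.

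Partners of these enzymes were read from lists of known function. Over 46 genes in 8 lists, 32 were detected in both libraries, another 5 in a single library, and 7 had 0 counts in both. Over all protein-coding genes, 30.4% were detected in both and 47% had 0 counts in both. Of the 32 whose mean TPM reached 10, 10 differed 2-fold in TPM, beside 51.3% of all genes at that level.

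All 6 maintenance partners were detected in both libraries. They were led by the replication clamp gene Pcna at 407 and 328 TPM, Cdca7, which activates the remodeller Hells, at 191 and 181, and Hells itself at 53.8 and 87.2. Uhrf2 at 74.8 and 21.98 TPM and Dmap1 at 46.9 and 1.78 were the 2 that differed 2-fold in TPM. Both were lower in replicate 2. In CPM, Dmap1 differed by -3.88, and Uhrf2 fell short of 2-fold at -0.98. Usp7 was higher in replicate 2, by 0.92 in TPM and by 2.10 in CPM. Uhrf2, Dmap1 and Usp7 were named after their values were seen. Of 5 de novo cofactors and imprint guards, 3 were detected in both, with Trim28 at 373 and 332 TPM, Zfp57 at 63.0 and 39.3 and Zfp445 at 18.9 and 36.3. Trim28 is the corepressor that zinc finger proteins such as Zfp57 bring to imprinted regions. The other two, Dnmt3l, the germline cofactor of Dnmt3a, and Dppa3, which shields methylation in the zygote, had 0 counts in both.

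Of 7 methyl-CpG readers, 4 were detected in both libraries and 2 in a single one. Mbd3 was at 95.7 and 140 TPM, Mbd1 at 22.5 and 17.0 and Zbtb33, which encodes Kaiso, at 25.0 and 4.78. Zbtb4, read in replicate 2 alone and named after its values were seen, was at 0 and 16.9. Among 3 Tet partners, Ogt, whose enzyme binds Tet proteins, was at 84.3 and 162 TPM. Cxxc5 was at 7.82 and 36.7, and Cxxc4 at 0.63 and 25.5, both higher in replicate 2.

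Of 11 base excision repair genes, 9 were detected in both libraries. Apex1, the endonuclease that cuts at the site Tdg leaves, was at 432 and 545 TPM, Parp1 at 158 and 184 and the glycosylase gene Neil3 at 93.5 and 68.6. The glycosylase genes Neil1 and Neil2 had 0 counts in both. Of 5 genes of the Gadd45 and deaminase list, Gadd45g alone was detected in both, at 87.8 and 33.9 TPM. Gadd45a was at 0.83 and 15.8, Apobec1 had 0 and 1 count, and Gadd45b had 0 counts in both.

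Genes that supply the methyl donor and the Tet cofactor were detected in both for 6 of 8. Idh2, which makes the 2-oxoglutarate that Tet enzymes use, was at 394 and 334 TPM and Idh1 at 172 and 340. Mat2a, which makes S-adenosylmethionine, was at 149 and 223 TPM, while the liver form Mat1a had 0 counts in both. Trdmt1, a relative of the DNA methyltransferases that methylates transfer RNA, was at 24.9 and 32.0 TPM.

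A list of 10 germline genes known to be silenced by promoter methylation in somatic cells, Dazl, Ddx4, Mael, Sycp1, Sycp3, Syce1, Taf7l, Tex101, Asz1 and Hormad1, had 0 counts in both libraries throughout. The same was true of 47% of all protein-coding genes, so silence of a gene is common in these libraries. For each gene, 0 counts allow up to 0.105 and 0.104 CPM.

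**Figure D5:**
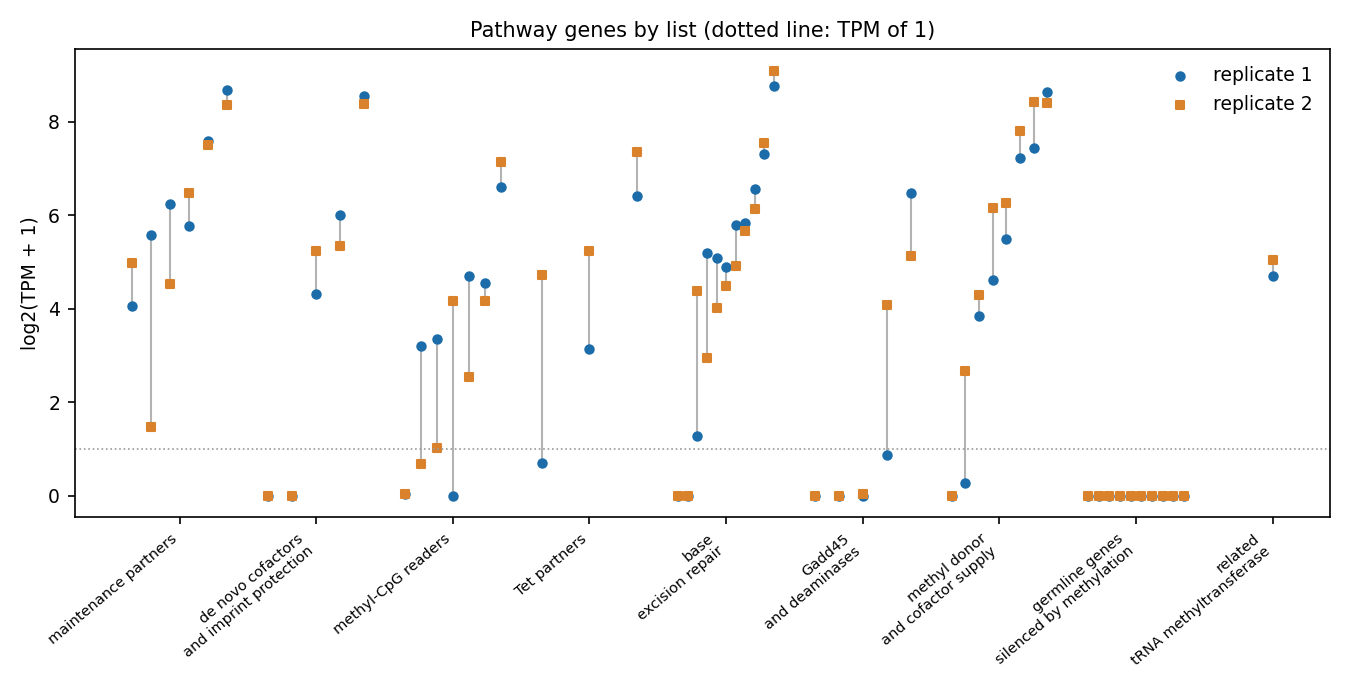
Each gene of the 9 pathway lists (x axis, grouped by list and ordered by mean within it) is shown as log2(TPM + 1) (y axis) in replicate 1 (blue circle) and replicate 2 (orange square), joined by a grey line, with a dotted line at a TPM of 1. The 6 maintenance partners lie above the dotted line in both libraries, and all 10 germline genes lie at 0.

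By level alone, the protein-coding genes nearest to Tdg in log2(TPM + 1) over the 2 libraries were Dut at 128.5 and 228 TPM, Ndufs3 at 132 and 212, and Tceal8 at 122 and 215. With 2 libraries many genes can match a pattern, so this names neighbours in level only.

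The libraries held 28639678 and 28948074 expected counts, of which ERCC spike-ins took 4.35% and 3.35%. Detected genes numbered 8928 and 9813. Of 8 forebrain and progenitor markers, 7 were detected in both libraries, as were all 4 markers of young neurons, while 5 markers of midbrain, hindbrain and spinal cord and the germ cell markers Dazl, Ddx4 and Dppa3 had 0 counts in both, as did 47% of protein-coding genes. The forebrain and progenitor markers summed to 344 and 187 TPM, with a median difference of -0.93, and the neuron markers to 721 and 640. The neuron markers went different ways. Tubb3 was at 512 and 356 TPM and Elavl3 at 17.4 and 2.3, while Dcx was at 16.1 and 95.6 and Stmn2 at 176 and 187. The part of these differences in the levels above was not tested. Of the 4 erythroid markers, 3 were detected in both, with a summed TPM over all 4 of 19729 and 24128. Blood RNA was thus present in both libraries, and its part in the levels above was not tested. Of the pluripotent cell markers, Pou5f1 and Zfp42 had 0 counts and Nanog 1 and 3.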

How the data were processed

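RNA sequencing values of 2 libraries of one group were taken as deposited. Per the file headers, the authors' gene and transcript tables hold expected counts, TPM and FPKM, each transcript's percent of its gene's TPM, and interval bounds, read here as a score. The text deposited with the tables names assembly mm10 and annotation release M4. Which aligner, quantification program and strand setting were used is not given in the sources used here. TPM divides reads by effective length, 99 bases under the length, and covers spike-ins too.

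Symbols, transcript models and coordinates (1-based) came from GENCODE release M21 by ID, which matched 42462 of 43346 genes. CPM used all expected counts of a library. Complete coding models are protein-coding ones not marked as truncated. TMM (edgeR 4.0.16) and DESeq2 1.42.0 scaled rounded counts as alternatives. Shared stretches are identical 100-base runs. TPM intervals are the deposited ones, and the interval in CPM is a 95% Clopper-Pearson one. A count of 0 allows 3 counts. Reads carry no molecular identifiers, so the CPM interval and this limit cover counting error only.

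The members and lists were chosen with earlier results of these data known. Named were all members, the 3 highest genes of each list and those at 0 counts in both libraries, and the 3 genes nearest to the highest member. Some genes so taken are not reported here. With 2 samples of one group, no p-value is given.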

Additional observations from a re-analysis of the deposited data

Results flagged for a closer look

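Outside the genes and the spike-ins, the deposited gene tables list 26248 entries whose ID is a bare number. The highest single entry of replicate 1 was at 21.99 expected counts and that of replicate 2 at 26, above the 3 that a count of 0 allows. None of them was used for the 8 genes.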

How the results depend on the processing

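The log2 difference of Tet1, -1.05, turned to 1.21 in CPM, 1.19 with TMM scaling, 1.23 with DESeq2 scaling and 1.62 over complete coding transcripts, and fell short of 2-fold at -0.98 with posterior mean TPM and -0.92 with a pseudocount of 5. That of Tet3, -0.18, turned to 0.33 in CPM, 0.31 with TMM and 0.35 with DESeq2. That of Dnmt3a, 1.26, was 0.15 in CPM, 0.13 with TMM and 0.17 with DESeq2. Genes differing 2-fold numbered 1 in place of 2 in CPM, with either scaling, with posterior mean TPM and with a pseudocount of 5. The DESeq2 size factors were 1 for both libraries and the TMM factors 0.997 and 1.003. CPM and these scalings are therefore nearly the same setting, and their likeness is no separate evidence. Over complete coding transcripts, chosen after seeing the data, the mean TPM was 7.70 for Tet1 and 8.69 for Tet3, and 4 of 8 genes kept their place in the order. With one library left out, 2 to 5 of 8 kept it. The same leading transcript was found in 3 members in place of 1 by expected count and over complete coding transcripts. Of the reader list, 2 genes passed a TPM of 5 in both, in place of 4, and of the Gadd45 and deaminase list 2 passed a TPM of 0.5 or a count of 10, in place of 1, and 1 to 2 with one library left out. Of the rest, 156 kept their direction and side, or moved by less than 1 SD (counts, by no more than 1.5 times). The mean TPM with one library left out is the other library's value, which with 2 libraries can never lie 1 SD away, so those 16 values say nothing of stability. CPM and FPKM were not run for mean TPM, since the unit differs. No paired analysis was possible because there is one group. A pair of libraries cannot set a spread closely, and counts of 0 allow up to 0.105 and 0.104 CPM.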
